A study of Mus musculus with 4 samples.

Results

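The genes Sostdc1, Bcl6, Il21, Sh2d1a, Tox2, Maf and Ascl2, which belong to or have been tied to the T follicular helper programme, were followed in T cells of pancreas and pancreatic lymph node. They are 7 of the 31053 genes counted. The genes were chosen by name, with their values in these libraries already known, so their levels are given as a description without a test. Gene expression was measured by droplet single-cell RNA sequencing with a 5′ kit, which counts transcripts by unique molecular identifiers (UMIs) under 1 barcode per droplet. There were 4 mouse libraries, 1 per tissue and genotype. Pancreas libraries held CD45+ leukocytes, sorted by flow cytometry from 4 pre-diabetic females 12 weeks old per genotype. Lymph node libraries held CD3 T cells, separated magnetically from the pancreatic nodes of 5 pre-diabetic females 8 weeks old per genotype. All animals carried the floxed Ocab allele. The controls were Ocabfl/fl, and the other genotype, Ocabfl/fl.CD4-Cre, also carried Cre recombinase driven by the Cd4 promoter, which is active in developing T cells, including those that later become CD8 cells. Ocab is Pou2af1, a transcriptional coactivator best known from B cells. Tissue, age and cell selection differed together, so each tissue was read on its own.

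T follicular helper cells are CD4 T cells that enter B cell follicles through the chemokine receptor CXCR5, carry the inhibitory receptor PD-1 (Pdcd1) and help B cells form germinal centres. BCL6 is the repressor that defines them, while MAF, TOX2 and ASCL2 are further transcription factors of the programme. SAP, encoded by Sh2d1a, is the adaptor through which SLAM family receptors keep T and B cells in contact. IL-21 is the cytokine they give to B cells. Sostdc1 encodes a secreted antagonist of BMP and Wnt ligands and has been described in follicular helper T cells.

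Sostdc1 lies on chromosome 12 from 36314139 to 36318452 (plus strand, GRCm38, GENCODE M21) and has 1 coding transcript of 1781 bases in 2 exons. Bcl6 lies on chromosome 16 from 23965052 to 23988852 (minus strand), Il21 on chromosome 3 from 37222759 to 37232636 (minus strand) and Sh2d1a on chromosome X from 42502453 to 42529330 (plus strand). Tox2 lies on chromosome 2 from 163203125 to 163324170 (plus strand), Maf on chromosome 8 from 115682942 to 115707794 (minus strand) and Ascl2 on chromosome 7 from 142966829 to 142969264 (minus strand). The Il21 promoter (RefSeq, GRCm38.p6, chr3:37232587-37232886, minus strand) is shown because Il21 and Maf UMIs often lay in the same barcodes. Capitals mark TGCTGA, the first part of the Maf recognition element:
Il21 promoter: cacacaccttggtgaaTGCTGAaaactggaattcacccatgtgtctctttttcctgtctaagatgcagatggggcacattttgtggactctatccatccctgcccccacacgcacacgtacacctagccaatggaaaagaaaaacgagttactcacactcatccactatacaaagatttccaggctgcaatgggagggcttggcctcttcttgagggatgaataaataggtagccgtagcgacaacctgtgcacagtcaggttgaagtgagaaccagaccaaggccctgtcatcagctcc
On either strand TGCTGA was present in 19.5% of 32851 RefSeq promoters of this length and in 3 of the 9 promoters matched to Bcl6, Il21, Tox2 and Ascl2, namely those of Il21 and Tox2. The octamer ATGCAAAT, the element bound by the POU factors that Pou2af1 assists, was present in 1.74% of all promoters and in 0 of these 9. Promoters of Sostdc1, Sh2d1a and Maf were not analysed here. A match describes the letters and is not a binding site.

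The libraries listed between 3059 and 6963 barcodes and between 14851217 and 32798133 UMIs. T barcodes, which came from clusters named by their T cell genes, were called CD4-only where they had a Cd4 UMI and neither Cd8a nor Cd8b1, and Foxp3-zero with no UMI of Foxp3, the factor that defines regulatory T cells. This gave 820 CD4-only Foxp3-zero barcodes in control and 1863 in CD4-Cre pancreas, and 1160 in control and 2429 in CD4-Cre lymph node, with median depths of 3442, 3447, 4533 and 4253 UMIs. Between 21 and 70 barcode sequences were shared by any 2 libraries. Pou2af1, the targeted gene, had 21 and 3 UMIs in CD4-only Foxp3-zero barcodes of the pancreas control and CD4-Cre libraries, and 37 and 1 in those of lymph node. Per 1000000 UMIs of the class in that library (CPM) these were 6.92, 0.433, 6.55 and 0.0923, so the libraries went the way of their labels in both tissues. The log2 ratio of CD4-Cre to control was -4.00 (-6.39 to -2.26) in pancreas and -6.15 (-11.5 to -3.58) in lymph node. Brackets hold 95% intervals throughout, exact Poisson for levels and ratios and exact Clopper-Pearson for shares unless named otherwise. They cover counting error only, and with 1 library per group no replicate error and no p-value can be given. B barcodes kept Pou2af1, at 232 CPM in pancreas control and 248 CPM in pancreas CD4-Cre.

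Sostdc1, the secreted BMP and Wnt antagonist, was found almost entirely in the CD4-Cre libraries. In CD4-only Foxp3-zero barcodes its UMIs numbered 2 in control and 136 in CD4-Cre pancreas, and 0 in control and 69 in CD4-Cre lymph node. As levels these were 0.659 CPM (0.0798 to 2.38), 19.6 CPM (16.5 to 23.2), 0 CPM (up to 0.653) and 6.37 CPM (4.95 to 8.06). Both CD4-Cre libraries were above the control of their tissue, with most UMIs from a few barcodes, as given next. The log2 ratio in pancreas was 4.90 (3.02 to 7.96), a ratio of 29.8. In lymph node, with the control library set to a floor of 3 counts, Sostdc1 was 12.0-fold higher in CD4-Cre. This ratio carries no counting error for the 69 UMIs, so it is not a lower limit.

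These UMIs came from few barcodes. Sostdc1 was detected in 2 of 820 pancreas control barcodes (0.244%, 0.0296 to 0.878) and 16 of 1863 pancreas CD4-Cre barcodes (0.859%, 0.492 to 1.39). It was detected in 0 of 1160 lymph node control barcodes and in 7 of 2429 lymph node CD4-Cre barcodes (0.288%, 0.116 to 0.593). What a share of 0 allows is given by the 3-count floor, here up to 0.259%, where the exact limit is 0.318%. The share of barcodes differed by 0.615 percentage points in pancreas (Newcombe interval -0.106 to 1.18) and by 0.288 points in lymph node (-0.0738 to 0.594). Both intervals include 0, so a difference in the number of Sostdc1 barcodes was not resolved by these counts, although the UMI totals differed. The UMIs of 1 barcode are not independent, and the interval of the UMI ratio is too narrow to that extent. With every barcode thinned to 1000 UMIs the shares were 0%, 0.647%, 0% and 0.165%.

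Among the 7 genes, 6 reached 20 UMIs over the libraries of a tissue, all but Ascl2. Of these 6, 1 was at least 2-fold higher in CD4-Cre in pancreas and 1 in lymph node, Sostdc1 each time, and 0 were at least 2-fold lower. Of all genes tested, 1.46% were at least 2-fold higher and 1.21% lower in pancreas, and 0.895% higher and 1.58% lower in lymph node. The median log2 ratio of the 6 genes was -0.03 in pancreas, where that of all 9921 tested genes was 0.04. In lymph node it was -0.36, beside -0.08 over 10171 tested genes. In either direction 2.67% of genes passed 2-fold in pancreas and 2.48% in lymph node. Sostdc1 was on the list because of this difference, so nothing is read from its share. In CD8-only barcodes 5 of the 7 genes reached 20 UMIs in pancreas, of which 1 was at least 2-fold higher, again Sostdc1, and 0 were lower. Of all 9281 genes tested there, 1.78% were higher and 2.1% lower, 3.88% in all. In lymph node CD8-only barcodes 2 genes were tested and 0 passed 2-fold, where 0.745% of 9805 genes were higher and 2.04% lower, 2.78% in all.

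**Figure D1:**
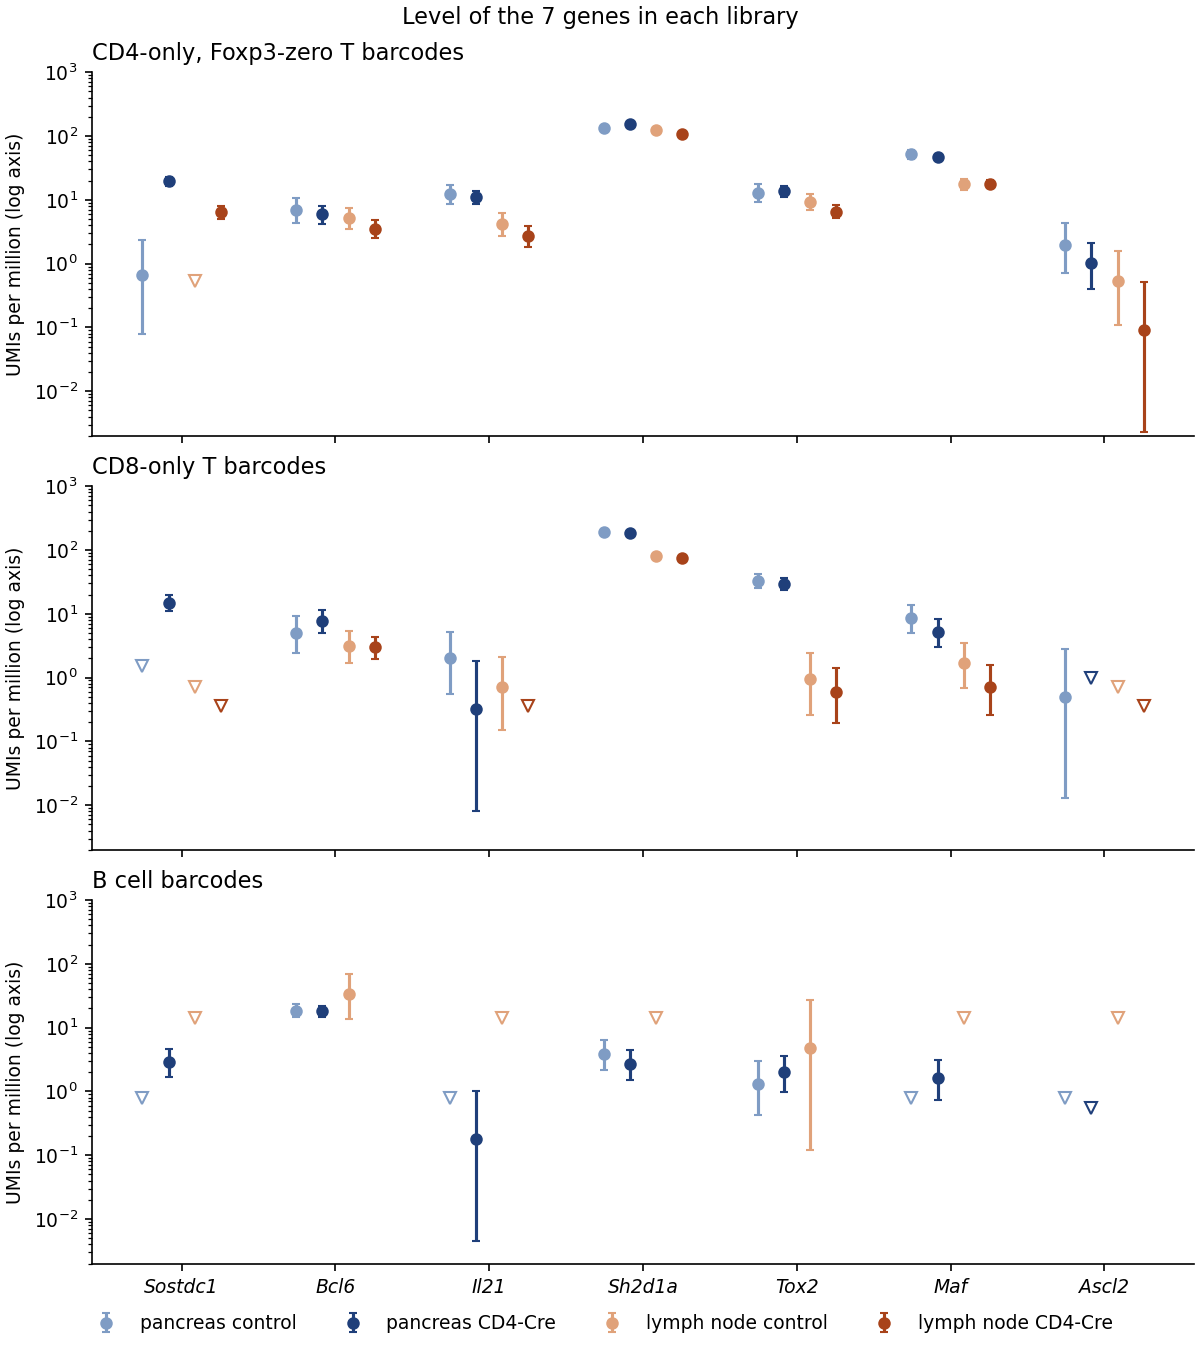
Level of the 7 genes in CPM (log axis) in CD4-only Foxp3-zero T, CD8-only T and B cell barcodes of each library; points are levels with exact Poisson 95% intervals, and open triangles mark the 3-count floor where no UMI was found. Sostdc1 stands at 19.6 CPM in pancreas CD4-Cre and 6.37 in lymph node CD4-Cre against 0.659 and 0 in the controls, while Sh2d1a lies between 109 and 154 CPM in all 4 libraries. No B barcodes were present in lymph node CD4-Cre.

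Over all listed barcodes, before any filter, Sostdc1 was carried by 3 barcodes in pancreas control with 1 UMI each, by 31 in pancreas CD4-Cre with 231 UMIs, by 0 in lymph node control and by 8 in lymph node CD4-Cre with 71 UMIs. In pancreas CD4-Cre the median was 5 UMIs per barcode and the highest 25, and 10 of the 31 barcodes held at least 10. Most lay in T cells. CD4-only Foxp3-zero barcodes made up 16 of the 31 and CD8-only barcodes 6, and 2 T barcodes carried both Cd4 and Cd8 UMIs and 2 neither. The other 5 were 1 B barcode, 2 myeloid barcodes, 1 barcode marked as a doublet and 1 that failed the filter. Both myeloid barcodes also carried Cd4 UMIs (5 and 1), Icos UMIs (4 and 1) and Trbv and Trav segments. Their clusters had 5 and 6 of the 6 T cell markers in at least 10% of barcodes. T cell UMIs were thus not particular to these 2, and whether they were mixtures with T cells was not tested. The B barcode held 16 Sostdc1 UMIs but also 3 Cd4 UMIs and T cell receptor sequence from Trbv13-2 beside 91 UMIs of B cell genes. In lymph node CD4-Cre 7 of 8 were CD4-only Foxp3-zero and 1 carried both Cd4 and Cd8 UMIs. Of the 31 pancreas barcode sequences, 4 were also listed in lymph node CD4-Cre, where they had 0 Sostdc1 UMIs. Over all 6963 barcodes listed in pancreas CD4-Cre, 70 were also listed there, a smaller share. The cause of this difference was not tested.

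Within a barcode Sostdc1 was often abundant. The 16 pancreas CD4-Cre barcodes of the CD4-only Foxp3-zero class held 1 to 20 UMIs with a median of 7, and 6 of them held at least 10. The 3 highest held 57 of the 136 UMIs. The 7 lymph node barcodes held 1, 2, 2, 2, 14, 16 and 32 UMIs, so 3 barcodes gave 62 of the 69. Barcodes with Sostdc1 were deeper than those without, with a median of 4729 UMIs (1305 to 10406) in pancreas CD4-Cre and 5743 (2700 to 28451) in lymph node CD4-Cre, against 3442 and 4252. At its highest a barcode reached 5364 CPM of Sostdc1 in pancreas and 5572 CPM in lymph node.

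**Figure D2:**
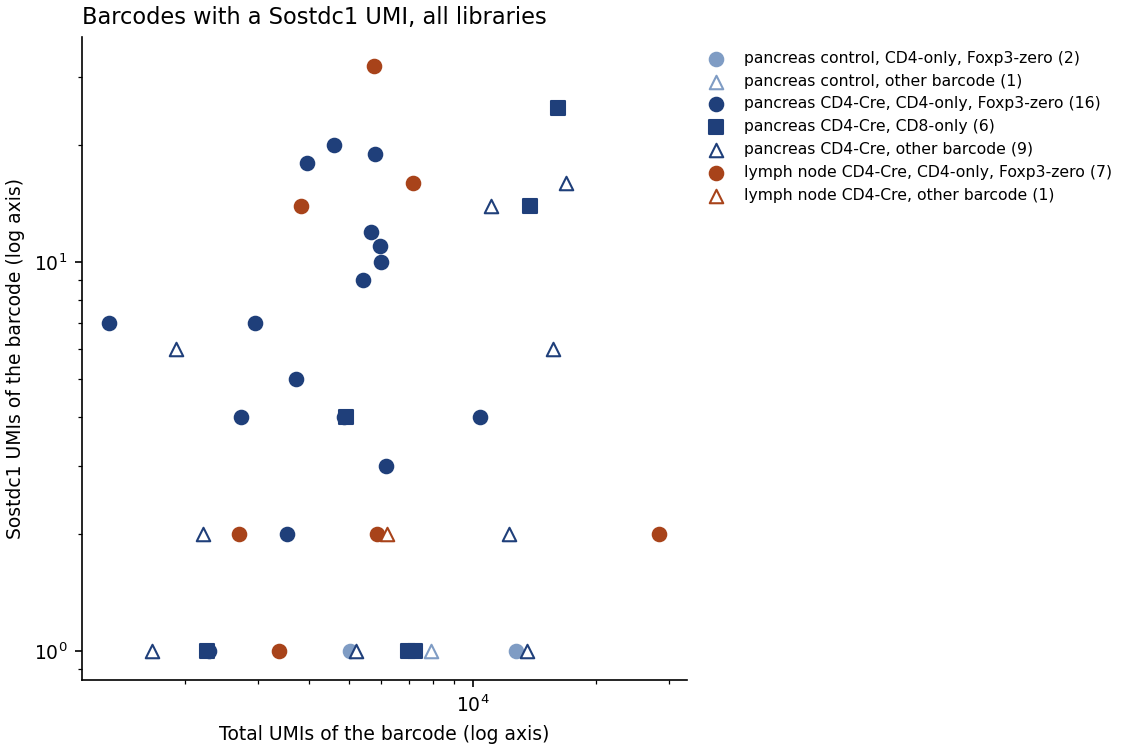
Sostdc1 UMIs against total UMIs (both log axes) for every listed barcode with a Sostdc1 UMI; colour gives the library, symbols the class, numbers in brackets the barcodes, and points can overlap. The pancreas control barcodes all sit at 1 UMI, whereas CD4-Cre barcodes reach 25 UMIs in pancreas and 32 in lymph node.

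By class, the level of Sostdc1 was highest in T barcodes of pancreas CD4-Cre. Barcodes with both Cd4 and Cd8 UMIs stood at 22.8 CPM (13.0 to 37.0, from 2 barcodes), CD4-only Foxp3-zero at 19.6 CPM and CD8-only at 14.9 CPM (10.9 to 19.9, 46 UMIs in 6 of 648 barcodes). These intervals overlap, so the 3 classes are not ordered. In lymph node CD4-Cre, read on its own, CD4-only Foxp3-zero barcodes stood at 6.37 CPM. In pancreas CD4-Cre, B barcodes followed at 2.90 CPM (1.66 to 4.71), all from the B barcode named above. T barcodes with neither Cd4 nor Cd8 had 1.68 CPM (0.677 to 3.47) and myeloid barcodes 0.547 CPM (0.113 to 1.60), all from the 2 barcodes with T cell receptor segments. No Sostdc1 UMI was found in natural killer barcodes of either pancreas library, in CD8-only barcodes of pancreas control or of either lymph node library, or in 41 B barcodes of lymph node control. With the control library set to the 3-count floor, CD8-only barcodes were 9.89-fold higher in pancreas CD4-Cre, without counting error for the 46 UMIs. Of these 46 UMIs, 43 came from 3 barcodes. The share was 6 of 648 (0.926%, with a lower limit of 0.341%) against 0 of 433 in control, which allows up to 0.693%, so a difference in the number of CD8-only Sostdc1 barcodes was not resolved. CD4-only barcodes with a Foxp3 UMI held 0 Sostdc1 UMIs in all 4 libraries, but they numbered 63, 127, 96 and 214, which allows shares of up to 4.76%, 2.36%, 3.13% and 1.40%. The limits for Foxp3 barcodes lie above the shares of the Foxp3-zero class, so a lower share was not detectable at this depth.

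The CD4-only Foxp3-zero Sostdc1 barcodes sat in 1 cluster of each tissue, although the 7 genes were left out of the clustering. In pancreas this cluster was led by 1700019D03Rik, Nrn1, Penk, Lag3 and Gpm6b, and in lymph node by Lag3, 1700019D03Rik, Pdcd1, Gpm6b and Tbc1d4. The cluster held 6.83% of CD4-only Foxp3-zero barcodes in pancreas control and 7.14% in CD4-Cre, and 10.6% and 10.8% in lymph node, shares that were close in the 2 genotypes. All 16 and all 7 CD4-only Foxp3-zero Sostdc1 barcodes of the CD4-Cre libraries and both of pancreas control were in it. Within it, Sostdc1 was detected in 2 of 56 pancreas control barcodes (3.57%, 0.435 to 12.3) and 16 of 133 CD4-Cre barcodes (12.0%, 7.04 to 18.8). In lymph node it was detected in 0 of 123 control barcodes and in 7 of 263 CD4-Cre barcodes (2.66%, 1.08 to 5.41). The same pancreas cluster also held CD8-only barcodes. Of these, 0 of 22 in control (exact limit 15.4%) and 5 of 34 in CD4-Cre (14.7%, 4.95 to 31.1) carried Sostdc1. The intervals of the genotypes overlap for both pancreas classes. In lymph node the interval of the difference, given at the end, includes 0.

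CD4-only Foxp3-zero barcodes with Sostdc1 carried most of the other 6 genes in larger shares than all Sostdc1-zero barcodes of their class and library. The gap was smaller against the Sostdc1-zero barcodes of their own cluster. In pancreas CD4-Cre 15 of 16 (93.8%, 69.8 to 99.8) carried at least 1 of the other 6 genes, and 8 carried at least 3. Sh2d1a was found in 11 of 16 (68.8%) against 34.9% of Sostdc1-zero barcodes, and Maf in 10 (62.5%) against 9.15%. Tox2 was found in 9 (56.3%) against 2.54%, and Il21 in 5 (31.3%) against 1.95%. Bcl6, the lineage-defining repressor, was in 2 of 16 (12.5%) against 1.95%, and Ascl2 was in 1. Bcl6 was sparse in this library, with 41 UMIs in 38 of the 1863 barcodes of the class. In the 117 Sostdc1-zero barcodes of the same cluster the shares were 61.5% for Sh2d1a, 44.4% for Maf, 22.2% for Tox2, 24.8% for Il21, 5.98% for Bcl6 and 2.56% for Ascl2. Those of Sh2d1a and Il21 were thus near the shares of the Sostdc1 barcodes. Thinned to 2000 UMIs, with 15 Sostdc1 barcodes left, Sh2d1a stood at 66.7% against 23.6%, Maf at 46.7% against 5.62% and Tox2 at 33.3% against 1.29%.

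The surface proteins of the programme went the same way in pancreas CD4-Cre. Cxcr5, the follicle-homing receptor, was found in 8 of 16 Sostdc1 barcodes (50%) against 1.52% of Sostdc1-zero barcodes, and Pdcd1 in 13 (81.3%) against 9.64%. Cd200, an inhibitory ligand, was found in 14 (87.5%) against 7.69%, and Tnfsf8, the CD30 ligand, in 15 (93.8%) against 15.4%. Thinned to 2000 UMIs, Cxcr5 was in 3 of 15 (20%) against 0.702% and Pdcd1 in 11 of 15 (73.3%) against 6.32%. Genes of resting and recirculating T cells were found in smaller shares: Lef1 in 12.5% against 72.0%, and Ccr7, the lymph node homing receptor, in 25% against 68.7%. Lef1 is also on the list of follicular helper genes followed below, so not every gene of that list went the same way. In Sostdc1-zero barcodes of the same cluster the shares were 11.1% for Cxcr5, 59.8% for Pdcd1 and for Cd200, 55.6% for Tnfsf8, 15.4% for Lef1 and 40.2% for Ccr7. UMIs of B cell genes were found in 1 of the 16 barcodes. Of the 6 CD8-only Sostdc1 barcodes of pancreas CD4-Cre, 5 carried at least 1 of the other 6 genes and 1 at least 3. Their median was 1 other gene, with Pdcd1 in 5 and Cxcr5 in 1.

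In lymph node CD4-Cre 6 of 7 Sostdc1 barcodes (85.7%, 42.1 to 99.6) carried at least 1 of the other genes. Of the whole class in this library, 62.9% carried none of the 7 genes. Sh2d1a was in 5 of 7 (71.4% against 34.2%), Tox2 in 4 (57.1% against 1.86%), Maf in 3 (42.9% against 4.50%) and Il21 in 2 (28.6% against 0.743%). Bcl6 and Ascl2 were in 0 of 7, too few barcodes to show that they were absent. Pdcd1 was in all 7 against 6.81%, and Cxcr5 in 3 (42.9%) against 2.11%. In the 256 Sostdc1-zero barcodes of the same cluster the shares were 48.0% for Sh2d1a, 10.9% for Tox2, 27.3% for Maf, 5.86% for Il21, 4.69% for Bcl6, 28.5% for Pdcd1 and 11.3% for Cxcr5. Both pancreas control barcodes carried Sh2d1a, Tox2 and Maf, and 1 of them Cxcr5 and Pdcd1. Ikzf2 encodes the transcription factor Helios, is among the regulatory T cell markers used here and was looked at after its values were seen. It was found in 8 of 16 pancreas CD4-Cre Sostdc1 barcodes (50%, 24.7 to 75.3) against 8.07% of Sostdc1-zero barcodes. In the same cluster it was in 39 of 117 Sostdc1-zero barcodes (33.3%, 24.9 to 42.6), an interval that overlaps. In lymph node CD4-Cre Ikzf2 was in 6 of 7 (85.7%, 42.1 to 99.6) against 5.37%. Of Sostdc1-zero barcodes of the same cluster 20.3% (15.6 to 25.8) carried it, an interval that does not overlap. The class rests on the absence of a Foxp3 UMI, and whether these barcodes were regulatory T cells was not tested.

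Genes were also ranked by their ratio of Sostdc1 to Sostdc1-zero barcodes, among those with a UMI in at least 3 Sostdc1 barcodes and at least 10 UMIs on the side where they were higher. The ranking chose these genes, so their ratios are a description. In pancreas CD4-Cre the highest ratio was that of Stfa3, a cysteine protease inhibitor of the stefin family. It had 13 UMIs in 5 of 16 barcodes and 0 in the 1847 others. With the others set to the 3-count floor it was 394-fold higher, without counting error for the 13 UMIs. Stfa3 belongs to a family of near-identical genes, so its count is uncertain. Edn3, an endothelin precursor, stood at 159 CPM against 2.04, Spp1, osteopontin, at 531 against 8.02 and Rnf128, the ubiquitin ligase GRAIL, at 133 against 3.35. Against the same cluster Rnf128 was 10.7-fold, Edn3 8.19-fold and Spp1 6.01-fold higher, but Spp1 came from 3 barcodes and Edn3 from 4. Angptl2, a secreted glycoprotein, stood at 398 CPM against 15.3, Cxcr5 at 159 against 5.54 and Tox2 at 252 against 10.9. The ratio against the same cluster was 5.30 for Cxcr5 and 3.48 for Tox2, and it was smaller for Pdcd1 (1.87), Sh2d1a (1.40), Il21 (1.37) and Maf (1.18). The lowest ratio to all Sostdc1-zero barcodes was that of Ifngr1, a chain of the interferon gamma receptor, at 39.8 CPM against 376, followed by Emb at 66.4 against 438 and Ccr7 at 79.7 against 437. In Sostdc1-zero barcodes of the same cluster these genes stood at 68.9, 161 and 175 CPM, nearer to the Sostdc1 barcodes.

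In lymph node CD4-Cre Cxcr3, a chemokine receptor of effector T cells, led at 368 CPM against 9.28, then Tox2 at 210 against 5.47 and Angptl2 at 193 against 5.84. Tigit, an inhibitory receptor, stood at 298 against 12.3 and Pdcd1 at 613 against 29.0. The lowest ratio was that of Klf2, a factor of recirculating T cells, at 52.5 CPM against 805 in all and 473 in same-cluster Sostdc1-zero barcodes. It rests on 3 UMIs with Sostdc1. Of the 15 genes with the highest ratio in each tissue, 4 were shared: Angptl2, Cxcr5, Marcksl1 and Tox2. Tox2 and Cxcr5 were also higher than in Sostdc1-zero barcodes of the same cluster, by 6.78-fold and 5.36-fold.

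**Figure D3:**
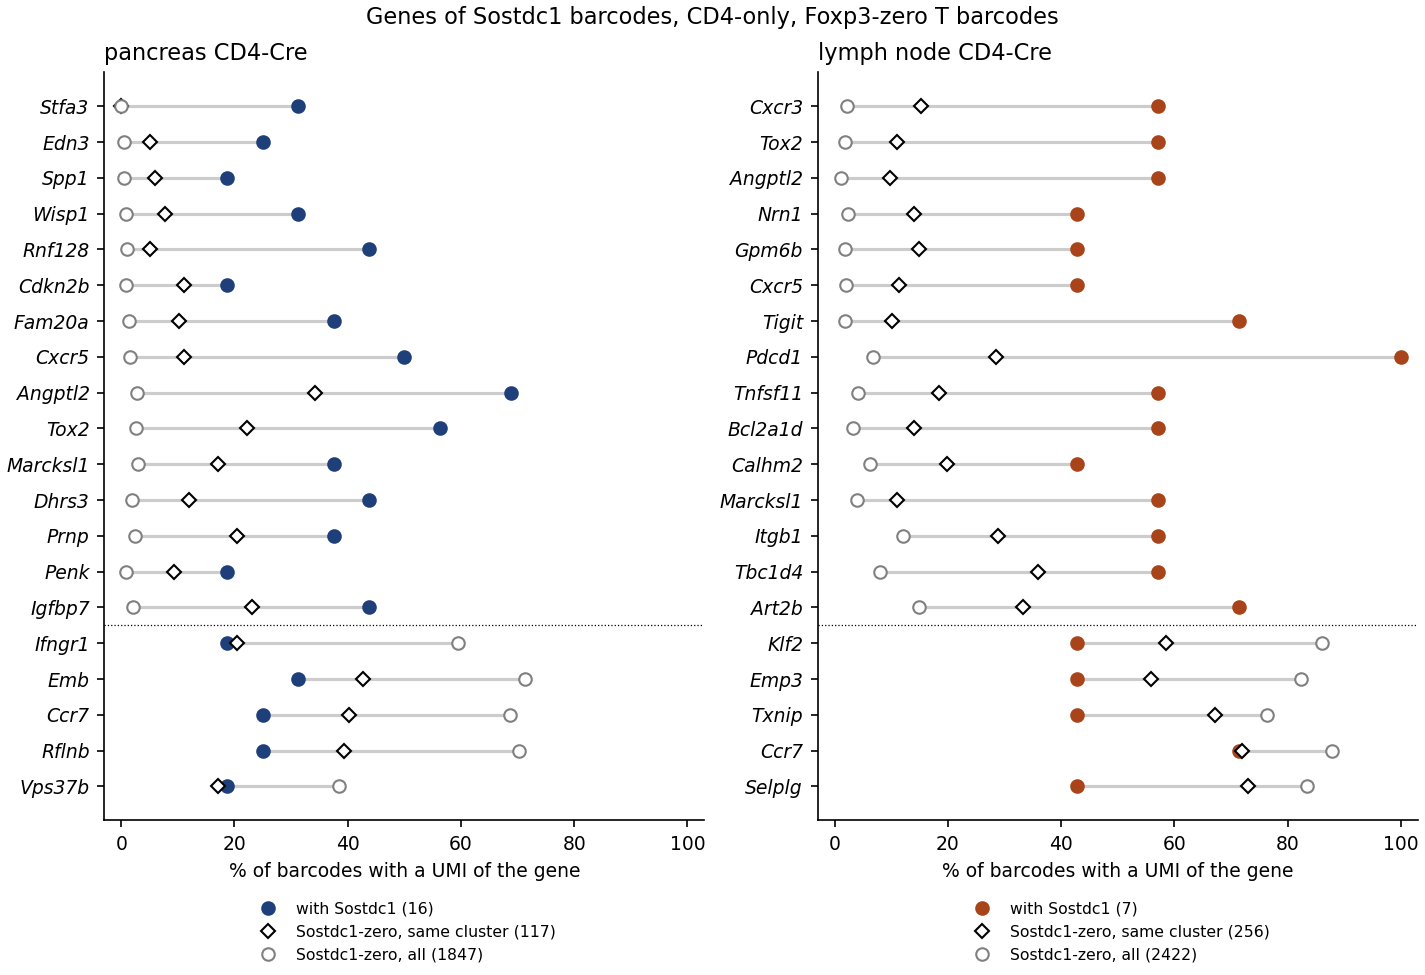
Share of CD4-only Foxp3-zero barcodes with a UMI of each gene, for the 15 genes with the highest (above the dotted line) and the 5 with the lowest CPM ratio in Sostdc1 barcodes of each CD4-Cre library; filled circles are Sostdc1 barcodes, diamonds Sostdc1-zero barcodes of the same cluster, and open circles all Sostdc1-zero barcodes. Tox2 stands at 56.3% against 2.54% in pancreas and 57.1% against 1.86% in lymph node, and the diamonds mostly lie between the circles.

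The T cell receptor segments read in the same matrices were varied. A Trbv segment was read in all 16 pancreas CD4-Cre barcodes of the CD4-only Foxp3-zero class, with 8 different segments, of which Trbv13-2 was the most frequent in 6. Both a Trbv and a Trav segment were read in 14, and the 14 combinations were all different. In lymph node CD4-Cre the 7 combinations were also all different by name, among them Trbv13-1 with Trav7d-3 and Trbv13-1 with Trav7-3. A repeated combination, Trbv13-3 with Trav16d-dv11, was found in 2 CD8-only barcodes of pancreas CD4-Cre. Each segment was the one with the most UMIs in its barcode, without a minimum. Shares of these segments among all barcodes of the classes were not compared, so nothing is read from the frequent segment or the repeat.

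Genes that respond to or transmit BMP and Wnt signals were sparse in these T cells. Of 11 such partners of Sostdc1, 4 reached 20 UMIs in pancreas and 5 in lymph node. In pancreas 0 of 4 were 2-fold higher or lower, with a median log2 ratio of 0.30, beside 0.04 over all genes, of which 1.46% were higher and 1.21% lower. In lymph node 0 of 5 were higher and 1 was lower, Bmp7, a BMP ligand, with 15 UMIs in control and 14 in CD4-Cre (2.65 and 1.29 CPM, log2 ratio -1.04, -2.20 to 0.11). The interval of Bmp7 includes 0, and the median of the 5 was -0.12, beside -0.08 over all genes with 0.895% higher and 1.58% lower. The Sostdc1 barcodes of pancreas CD4-Cre held 1 UMI each of Bmp7, Bmpr2 and Lrp6.

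For the transcription factors Bcl6, Maf, Tox2 and Ascl2 the interval of the genotype ratio included 0 in both tissues, which does not show that their levels were alike. Bcl6 had 21 and 41 UMIs in control and CD4-Cre pancreas, and 29 and 38 in control and CD4-Cre lymph node, or 6.92 CPM (4.28 to 10.6), 5.91 CPM (4.24 to 8.02), 5.13 CPM (3.44 to 7.37) and 3.51 CPM (2.48 to 4.81). The log2 ratio of Bcl6 was -0.23 (-1.02 to 0.61) in pancreas and -0.55 (-1.28 to 0.20) in lymph node. The intervals overlap in each tissue and both ratios include 0. CD8-only barcodes held Bcl6 at 5.03, 7.78, 3.13 and 2.97 CPM in the same order of libraries, and in each library their interval overlapped that of CD4-only Foxp3-zero barcodes. B barcodes, which use Bcl6 themselves, held 18.5, 17.9 and 33.6 CPM where they were present.

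Maf had 156, 325, 100 and 190 UMIs in the same order, at 51.4 CPM (43.6 to 60.1), 46.9 CPM (41.9 to 52.3), 17.7 CPM (14.4 to 21.5) and 17.5 CPM (15.1 to 20.2). Its pancreas levels were the higher ones in both genotypes, but age and cell selection differed with the tissue. The log2 ratio of CD4-Cre to control was -0.13 (-0.41 to 0.15) in pancreas and -0.01 (-0.37 to 0.35) in lymph node. Maf was lower in CD8-only barcodes, where it had 8.54, 5.19, 1.69 and 0.714 CPM. The interval of every Maf level in CD8-only barcodes lay below that in CD4-only Foxp3-zero barcodes of the same library. CD4-only barcodes with a Foxp3 UMI held more Maf still, at 218, 175, 76.6 and 68.9 CPM. In B barcodes Maf was detected in 0 of 887 in pancreas control and in 0.456% in pancreas CD4-Cre, with median depths of 3564 and 3412 UMIs, against 12.3% and 9.61% of CD4-only Foxp3-zero barcodes.

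Tox2 had 39, 94, 53 and 71 UMIs, at 12.8 CPM (9.14 to 17.6), 13.6 CPM (11.0 to 16.6), 9.38 CPM (7.02 to 12.3) and 6.55 CPM (5.12 to 8.26). The log2 ratio was 0.08 (-0.48 to 0.66) in pancreas and -0.52 (-1.05 to 0.02) in lymph node, both including 0. Its CD8-only levels were 33.2 and 29.2 CPM in the pancreas libraries and 0.964 and 0.595 CPM in the lymph node libraries. Tox2 was thus higher in CD8-only than in CD4-only Foxp3-zero barcodes of pancreas and lower in those of lymph node, in both genotypes. Ascl2, a factor that can induce Cxcr5, was near the limit of detection, with 6 UMIs in 3 barcodes, 7 in 4, 3 in 3 and 1 in 1. The log2 ratio of Ascl2 was -0.97 (-2.77 to 0.88) in pancreas and -2.52 (-8.24 to 1.11) in lymph node, so no difference was detectable at this depth.

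Sh2d1a, the SLAM adaptor, was found in about as many barcodes in each library: 261 of 820 (31.8%), 656 of 1863 (35.2%), 441 of 1160 (38.0%) and 834 of 2429 (34.3%). Its UMIs were 399, 1070, 706 and 1183, at 131 CPM (119 to 145), 154 CPM (145 to 164), 125 CPM (116 to 134) and 109 CPM (103 to 116). The log2 ratio was 0.23 (0.06 to 0.40) in pancreas and -0.19 (-0.33 to -0.06) in lymph node. Both intervals exclude 0 for counting error, in opposite directions, and neither size reaches 2-fold. In CD8-only barcodes Sh2d1a stood at 191, 185, 79.5 and 75.9 CPM. A Sh2d1a UMI was found in 1.01% of pancreas control and 0.608% of pancreas CD4-Cre B barcodes.

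Il21, the cytokine, had 37 and 77 UMIs in the pancreas libraries, control and then CD4-Cre, and 24 and 29 in those of lymph node. Its levels were 12.2 CPM (8.58 to 16.8), 11.1 CPM (8.77 to 13.9), 4.25 CPM (2.72 to 6.32) and 2.68 CPM (1.79 to 3.84), and the genotypes overlapped in each tissue. The pancreas levels were the higher ones, but age and cell selection differed with the tissue. The log2 ratio was -0.13 (-0.72 to 0.47) in pancreas and -0.67 (-1.50 to 0.18) in lymph node. Il21 was rare per barcode, in 2.32%, 2.20%, 0.690% and 0.823% of CD4-only Foxp3-zero barcodes. In CD8-only barcodes it had 4, 1, 3 and 0 UMIs, and in B barcodes 0, 1 and 0. In lymph node control 16 of its 24 UMIs came from 3 barcodes.

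Most CD4-only Foxp3-zero barcodes carried none of the 7 genes, between 59.0% in pancreas control and 62.9% in lymph node CD4-Cre. At least 3 of the 7 were carried by 19 barcodes in pancreas control (2.32%, 1.40 to 3.59), 55 in pancreas CD4-Cre (2.95%, 2.23 to 3.83), 16 in lymph node control (1.38%, 0.790 to 2.23) and 37 in lymph node CD4-Cre (1.52%, 1.07 to 2.09). The intervals of the genotypes overlap in each tissue. Il21 and Maf were often detected together. Of Il21 barcodes, 15 of 19 in pancreas control (78.9%), 31 of 41 in pancreas CD4-Cre (75.6%), 7 of 8 in lymph node control (87.5%) and 17 of 20 in lymph node CD4-Cre (85%) also carried Maf. Among barcodes without Il21 the share with Maf was 10.7%, 8.12%, 3.73% and 3.94%. Thinned to 2000 UMIs, 6 of 11, 11 of 20, 3 of 3 and 4 of 6 Il21 barcodes carried Maf.

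Tox2 barcodes were rich in Sh2d1a, at 84.2%, 76.8%, 88% and 77.6% in the order of libraries above, against 30.6%, 33.9%, 36.9% and 33.4% of barcodes without Tox2. They also carried Maf in 63.2%, 60.7%, 52% and 63.3%, and Cxcr5 in 36.8%, 28.6%, 36% and 40.8%. Bcl6 barcodes were less marked: Maf was found in 21.1%, 15.8%, 14.3% and 22.2% of them, against 12.1%, 9.48%, 4.13% and 4.35% of barcodes without Bcl6. Cxcr5 was found in 0%, 7.89%, 19.0% and 8.33% of Bcl6 barcodes. Barcodes in which any gene was detected tended to be deeper, and all shares within a library share its depth.

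**Figure D4:**
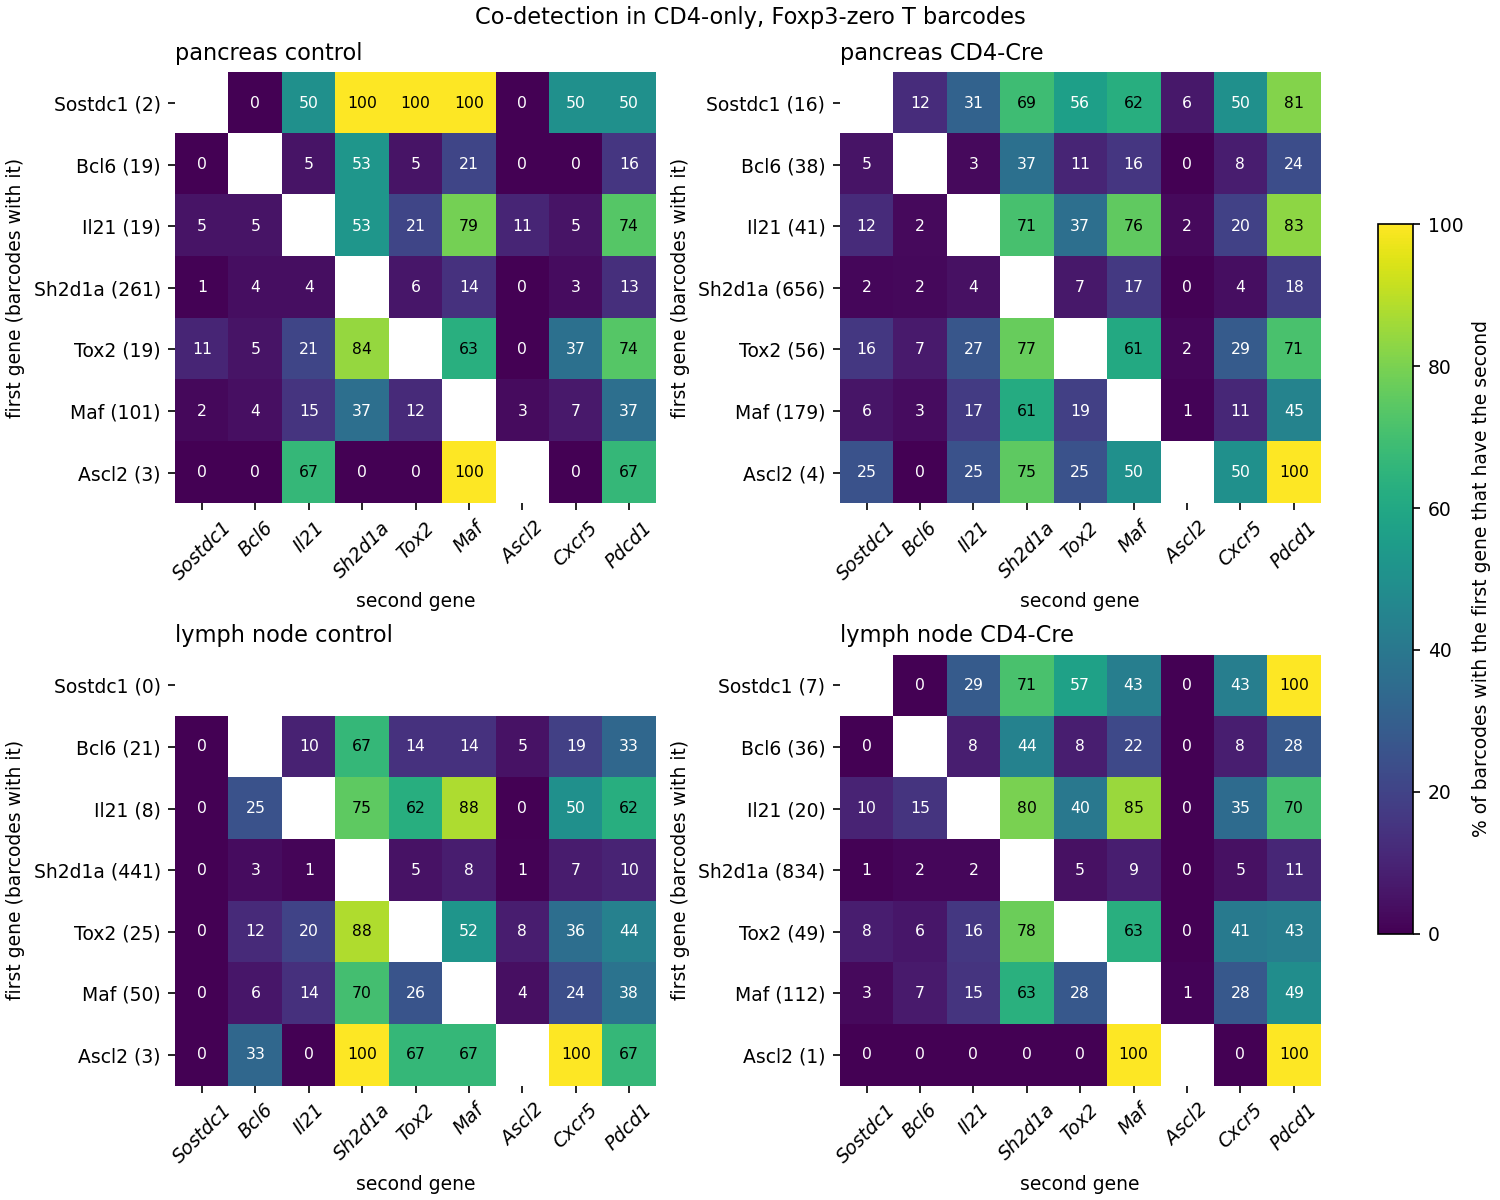
For each of the 7 genes, the percentage of its CD4-only Foxp3-zero barcodes that also carried a second gene, in each library; numbers in brackets are the barcodes with the first gene, the colour scale runs from 0 to 100%, and blank cells have no value. Il21 rows are high under Maf (78.9%, 75.6%, 87.5% and 85%) and Tox2 rows under Sh2d1a (84.2%, 76.8%, 88% and 77.6%) in all 4 libraries.

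The cluster that held the CD4-only Foxp3-zero Sostdc1 barcodes also held a larger share of the UMIs of each of the other 6 genes than of the barcodes, in all 4 libraries. In pancreas its barcodes were deeper, with 298060 of 3035183 UMIs of the class in control and 641066 of 6932695 in CD4-Cre. Bcl6 in pancreas control rests on 3 UMIs there, at 10.1 CPM (2.08 to 29.4), which overlaps its level in the whole class. Of Il21 UMIs in CD4-only Foxp3-zero barcodes, 100% and 84.4% lay in it in control and CD4-Cre pancreas, and 75% and 65.5% in control and CD4-Cre lymph node. For Tox2 the shares were 38.5%, 63.8%, 83.0% and 69.0%, and for Maf 41.0%, 40.9%, 66% and 64.2%. Ascl2 had 2 of 6, 7 of 7, 3 of 3 and 1 of 1 UMIs in it. Bcl6 was more spread out, with 14.3%, 26.8%, 34.5% and 34.2%, as was Sh2d1a, with 18.8%, 22.6%, 31.0% and 22.4%. Within the cluster Sh2d1a stood at 252 CPM (198 to 315) in pancreas control and 378 CPM (331 to 428) in CD4-Cre, and at 337 CPM (294 to 385) in lymph node control and 212 CPM (187 to 239) in CD4-Cre. The opposite signs of Sh2d1a were thus present in this cluster, with level intervals that did not overlap between genotypes. The cluster is part of the class, so this is not a second observation. In lymph node it held these shares of Sh2d1a UMIs with 10.6% of the class barcodes in control and 10.8% in CD4-Cre. Sh2d1a levels without the cluster were not computed, so the sign in the remaining barcodes was not tested. Sostdc1 stood at 6.71, 212, 0 and 55.1 CPM there.

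Barcodes with both a Cxcr5 and a Pdcd1 UMI, the receptor pair of follicular helper cells, were rare. There were 8 of 820 in pancreas control (0.976%), 24 of 1863 in pancreas CD4-Cre (1.29%), 19 of 1160 in lymph node control (1.64%) and 27 of 2429 in lymph node CD4-Cre (1.11%). The share differed by 0.313 percentage points in pancreas (Newcombe interval -0.715 to 1.10) and by -0.526 points in lymph node (-1.50 to 0.245), and both intervals include 0. Sostdc1 was found in 1 of the 8 (12.5%), 8 of the 24 (33.3%), 0 of the 19 and 3 of the 27 (11.1%). Among other barcodes Sostdc1 was in 0.435% in pancreas CD4-Cre and 0.167% in lymph node CD4-Cre. Sh2d1a was in 75%, 83.3%, 78.9% and 70.4% of Cxcr5 and Pdcd1 barcodes, and Maf in 62.5%, 70.8%, 42.1% and 77.8%. Tox2 was in 62.5%, 54.2%, 36.8% and 44.4%, where other barcodes had 1.72%, 2.34%, 1.58% and 1.54%. Bcl6 was in 0%, 12.5%, 21.1% and 0% of them, from 0, 3, 4 and 0 barcodes.

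**Figure D5:**
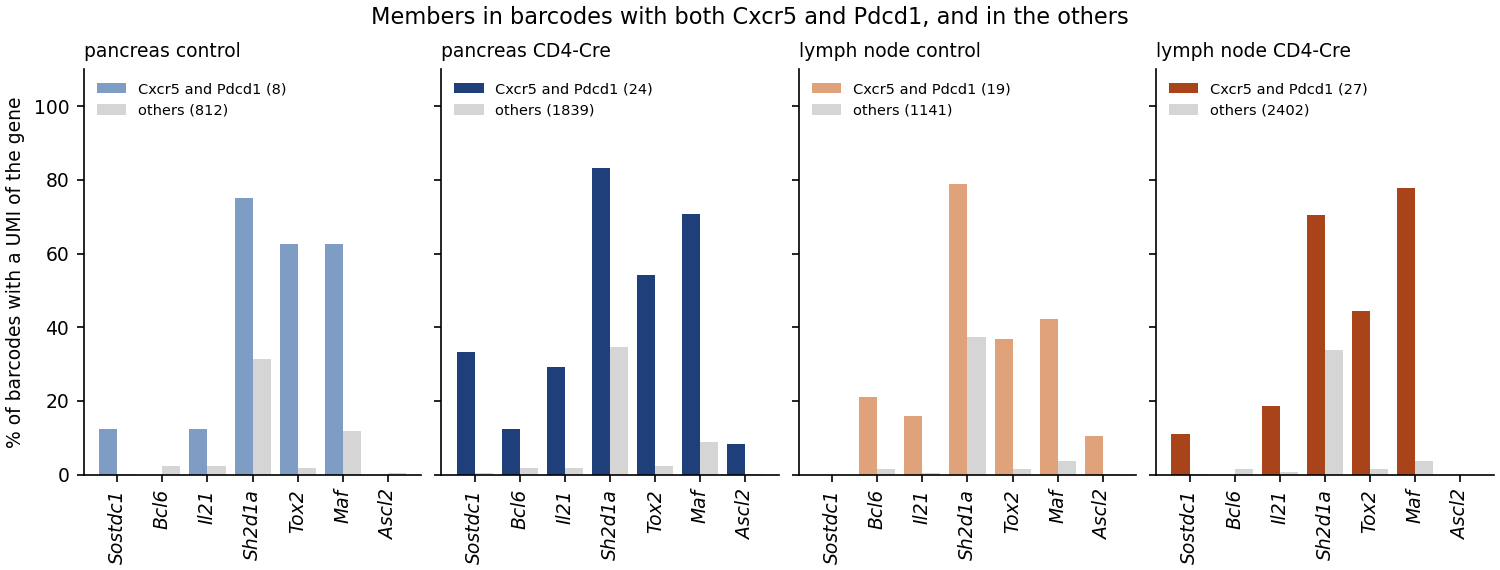
Percentage of CD4-only Foxp3-zero barcodes with a UMI of each gene, in barcodes with both Cxcr5 and Pdcd1 (coloured bars) and in all others (grey bars), by library; numbers of barcodes are in brackets. Sh2d1a, Maf and Tox2 are higher in coloured than in grey bars in all 4 libraries, and Sostdc1 reaches 33.3% in pancreas CD4-Cre and 11.1% in lymph node CD4-Cre.

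Other genes of the follicular helper programme were followed as a list. Of its 25 genes, 23 reached 20 UMIs in each tissue. In pancreas 0 were 2-fold higher and 1 was 2-fold lower, the targeted Pou2af1, and the median log2 ratio was -0.04. Over all genes 1.46% were higher and 1.21% lower, with a median of 0.04. Cxcr5 stood at 6.26 CPM in control and 7.21 CPM in CD4-Cre (log2 ratio 0.20, -0.58 to 1.05), Pdcd1 at 69.2 and 70.1 CPM and Icos, a costimulatory receptor, at 81.0 and 78.6 CPM. Tnfsf8 stood at 58.0 and 80.6 CPM (0.48, 0.23 to 0.73) and Id3, an inhibitor of E proteins, at 25.7 and 41.0 CPM (0.67, 0.31 to 1.05). Both of these intervals lie above 0.

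In lymph node 0 of 23 were 2-fold higher and 2 were 2-fold lower, Irf4 and Pou2af1, and 19 of the 23 ratios were below 0 with a median of -0.20. Over all genes 65.1% of ratios were below 0, with a median of -0.08, and 0.895% were 2-fold higher and 1.58% lower. Irf4, a transcription factor induced by T cell receptor signalling, had 85 UMIs in the control and 53 in the CD4-Cre library, the latter at 4.89 CPM (log2 ratio -1.62, -2.14 to -1.11). Cxcr5 stood at 14.5 and 7.75 CPM (-0.90, -1.36 to -0.45), Slamf1 at 34.7 and 22.9 CPM (-0.60), Icos at 41.8 and 29.0 CPM (-0.53) and Batf at 71.0 and 53.8 CPM (-0.40). The interval of Cxcr5 thus excludes 0 in lymph node and includes it in pancreas, and the difference between the tissues was not tested. A list of 9 genes that oppose the programme, among them Prdm1, Klf2 and Il2ra, had 0 genes past 2-fold in either direction, of 9 tested in pancreas and 8 in lymph node. Its median log2 ratio was -0.02 in pancreas and -0.06 in lymph node, beside 0.04 and -0.08 over all genes.

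Over 26 combinations of class and library with at least 50 barcodes, the genes whose levels were most like those of Sostdc1 among 12408 were Gm9493 (Pearson r 0.659), Rpl9-ps6 (0.654), Gclm (0.612), Chn1 (0.566) and Cdkn2a (0.524). Rpl9-ps6 is named as a pseudogene and Gm9493 as a predicted gene, so the counts of both can include reads of near-identical copies and are uncertain. The points share libraries and depth, and r is given as a description. The other follicular helper genes were less like Sostdc1, from 0.26 for Tox2 and 0.11 for Il21 to -0.03 for Bcl6. High co-detection within barcodes went with low likeness across classes. Sostdc1 was at or near 0 in control classes that held the other genes, and also in some CD4-Cre classes. In pancreas CD4-Cre it had 0 UMIs in natural killer barcodes, where Sh2d1a stood at 347 CPM. It also had 0 in CD4-only barcodes with a Foxp3 UMI, where Sh2d1a stood at 282 and Maf at 175 CPM. The cause of the low likeness was not tested.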

How the data were processed

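Per the file headers, the authors deposited counts of UMIs per gene and barcode, whole numbers without normalization, written by software version 3.0.0. Cell Ranger and mm10 are named in the submitters' processing notes. Barcodes with at least 500 genes and at most 10% mitochondrial UMIs were kept. Doublets were scored against 2 simulated doublets per barcode and removed at 0.8% per 1000 listed barcodes, which left 4004, 6238, 2843 and 5304 barcodes (pancreas control, pancreas CD4-Cre, lymph node control, lymph node CD4-Cre). Clustering left out the 7 genes and joined both genotypes of a tissue (scanpy 1.11.5, Leiden resolution 1, on 30 principal components of 2000 variable genes with 15 neighbours). Clusters were named from marker genes, so classes are T cell-like and B cell-like. The naming rule had withheld the T name from 3 clusters, 2 over Ccr9 and 1 over Gata3 and Rora. They were kept as T cells, with all 6 T markers in at least 50% of barcodes, a choice made after seeing the data. UMIs were summed per class and library, and a gene was called at 2-fold with at least 20 UMIs in both libraries together. Of 31053 identifiers, 31011 were found in GENCODE M21. The scaling alternatives used edgeR 4.0.16 and DESeq2 1.42.0, and the interval code was tested on simulated data. Genes named were the 7, the 3 pathway lists, and the 15 highest and 5 lowest ratios of Sostdc1 barcodes among genes with a UMI in at least 3 of them, at least 10 UMIs on the higher side and Poisson intervals that do not overlap. The genes and lists were chosen with earlier results of these data known.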

Additional observations from a re-analysis of the deposited data

Results flagged for a closer look

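Sh2d1a differed between genotypes in opposite directions in the tissues. In CD4-only Foxp3-zero barcodes its log2 ratio of CD4-Cre to control was 0.23 in pancreas and -0.19 in lymph node, and each interval for counting error excludes 0. In lymph node 31.0% of its UMIs in control and 22.4% in CD4-Cre lay in the cluster of the Sostdc1 barcodes. Levels without this cluster were not computed. The difference between the tissues was not tested, since each group is 1 library, and tissue, age and cell selection cannot be told apart.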

How the results depend on the processing

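No paired analysis was possible because each group held 1 library. Of 123 recomputed summary values 105 stayed within their interval or within 1.5 times the count and 18 moved. A change of sign could be called only for the Sostdc1 levels, whose intervals excluded 0, and 0 of these changed sign. The pancreas log2 ratio of Sostdc1, 4.90, became 1.82 with barcodes counted in place of UMIs and 1.47 with 10 CPM added to each level. The lymph node log2 ratio, 3.58 with the control at the floor, became 2.94 with at least 2 Cd4 UMIs required and 0.16 with barcodes counted. It became 2.69 without the barcode highest in Sostdc1 and 0.71 with 10 CPM added. Within the cluster of Sostdc1 barcodes alone, an alternative chosen after seeing the data, the share of Sostdc1 barcodes differed by 8.46 percentage points in pancreas (-1.20 to 15.6) and 2.66 in lymph node (-0.661 to 5.39). The share of pancreas CD4-Cre Sostdc1 barcodes with another of the 7 genes, 93.8%, became 100% with at least 2 Cd4 UMIs, without Ikzf2 barcodes or thinned to 2000 UMIs, and 66.7% thinned to 1000. Of all class barcodes thinned to 2000 UMIs, 71.2% in pancreas CD4-Cre and 79.2% in lymph node CD4-Cre carried none of the 7 genes. In lymph node the share of Sostdc1 barcodes with another gene went from 85.7% to 100% without Ikzf2 barcodes, which left 1 barcode. It became 40% thinned to 2000 UMIs. The 1 barcode left without Ikzf2 barcodes held no more Sostdc1 UMIs than the floor of 3 counts. Without Ikzf2 barcodes no lymph node ratio of Sostdc1 could thus be formed, and its difference between genotypes was not shown. The count of genes past 2-fold, 265 in pancreas and 252 in lymph node, became 2014 and 1942 at a minimum of 1 UMI and 66 and 101 at 50 UMIs. Sh2d1a ranged from 0.14 to 0.28 in pancreas and from -0.20 to -0.12 in lymph node, whereas Tox2 in pancreas ranged from -0.25 to 0.38 and was below 0 in 5 of 15 settings. Maf in lymph node ranged from -0.08 to 0.22 and had the other sign in 5 of 15. Bcl6, Maf and Ascl2 in pancreas and Il21 in lymph node had the other sign in 1 setting each. The cause of these shifts was not tested. TMM or DESeq2 size factors moved ratios by at most 0.08 on the log2 scale. Depth limits Ascl2, Bcl6 and Il21, with fewer than 80 UMIs each per library.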
